A study of Mus musculus with 5 samples.

Results

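The genes described here are 30 mouse genes of fatty acid oxidation and ketone body metabolism, with the acyl-CoA synthetases and carnitine acyltransferases that feed oxidation. The gene list was given by name, with no threshold on a measured value: every non-control probe named for one of them, or whose accession now carries its symbol, was taken. This gave 47 probes for the 30 genes, among 19308 genes tested. RNA of 5 cell cultures was hybridised to 5 one-colour whole-genome arrays. The 2 induced hepatic progenitor cell (iHPC) samples were made from the neural progenitor line NSBAg2 with retroviral pMXs vectors for 9 (iHPC 9F) or 10 (iHPC 10F) transcription factors. G418 was added 3 weeks after infection and kept for 1 week. NSBAg2 comes from the embryonic stem cell line BAg73C2, whose Afp gene carries a beta-geo cassette, so G418 acts on cells that do not transcribe the alpha-fetoprotein locus. The 2 hepatic progenitor cell (HPC) samples are lines from fetal liver at E13.5, HB1 of strain C57BL6J and HNG2 of STOCK Tg(Nanog-GFP, Puro)1 Yam. The single neural progenitor cell (NPC) sample is uninfected NSBAg2. Each HPC sample is thus 1 line of a different stock, and the iHPC samples share 1 parental line but differ in their factors. No label calls the samples of a group repeat cultures, so p-values measure only the spread between these samples.

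Fatty acids are activated to acyl-CoA by synthetases, carried into mitochondria on carnitine, and shortened in cycles of dehydrogenation, hydration, a further oxidation and thiolysis. Electrons of the first oxidation pass through the electron transfer flavoprotein to the respiratory chain, while very long and branched chains are first shortened in peroxisomes. In liver, surplus acetyl-CoA is turned into ketone bodies, and many genes of these routes are targets of the nuclear receptor PPARα.

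Levels below are on the log2 scale, with the array's own 75th percentile at 0, and each gene has 1 probe, the one with the highest mean. Values of a pair are in the order 9F and 10F for iHPC, and HB1 and HNG2 for HPC. Levels of different genes come from different probes and are not compared. Between 58.9% and 65.6% of spots were well above background and 0 were saturated. All 8 hepatic markers were well above background on each iHPC and HPC array, against 1 of 8 (Krt18) on the NPC array. Among the 8 is Afp, whose locus G418 selected for in iHPC. They also include the transcription factor Hnf4a, and the labels do not name the factors introduced. Alb was at 3.23 and 3.98 in iHPC and at 4.60 and 1.84 in HPC, against -7.51 in NPC. Of 6 neural markers, 5 and 5 were well above background in iHPC and 4 and 5 in HPC, against all 6 in NPC. Their summed levels were 2.83 and 3.01 in iHPC and 0.89 and 1.72 in HPC, against 2.37 in NPC. Their median levels were -3.31 and -3.63 in iHPC and -4.40 and -4.55 in HPC, against -1.05 in NPC. By the sum iHPC was thus highest, and by the median NPC was. Sox2 was at -3.57 and -4.41 in iHPC and at -8.07 and -8.60 in HPC, against 0.86 in NPC, while Nes was at 2.66 and 2.87 in iHPC and at 0.28 and 1.52 in HPC, against 1.18 in NPC. All 7 mesenchymal markers were also well above background in NPC, against 5 and 6 in iHPC and 2 and 6 in HPC, with summed levels of 1.18 and 1.28 in iHPC and -2.72 and 1.13 in HPC, against 7.56 in NPC. The collagen gene Col1a2 was at -1.14 and -1.01 in iHPC and at -3.34 and -1.18 in HPC, against 6.53 in NPC. Of 3 macrophage markers 2 were well above background in iHPC and HPC and 1 in NPC, with summed levels of 0.66 and 0.79 in iHPC and -1.61 and -1.89 in HPC, against -1.63 in NPC; Adgre1 was well above background on no array. Of 3 adipocyte markers, Fabp4 alone was well above background in iHPC, at 1.26 and 1.80 in iHPC and at -5.39 and -4.62 in HPC, against -1.19 in NPC, and Adipoq was on no array. These markers moved with the cell types compared, and their part in the results was not tested. In bulk samples fewer cells of a type and less RNA per cell cannot be told apart.

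The median range of the 30 genes over the 5 arrays was 1.03 on the log2 scale, against 1.39 over all genes. Of the 30, 5 varied widely, some of them within a cell type. All 30 passed the filter on dim probes, and 29 were well above background on all 5 arrays (96.7%, against 78.0% of all genes tested). In 20 of the 30 (66.7%) every difference between cell types was under 2-fold, against 49.1% of all genes. The range of a gene over the 5 arrays was smallest for Acadvl, at 0.25 on the log2 scale. It was largest for Acox2 (5.42), Acsl1 (4.01), Acsl6 (3.33), Bdh1 (3.33) and Acsl5 (3.19), and the next gene, Crot, had a range of 1.45.

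**Figure D1:**
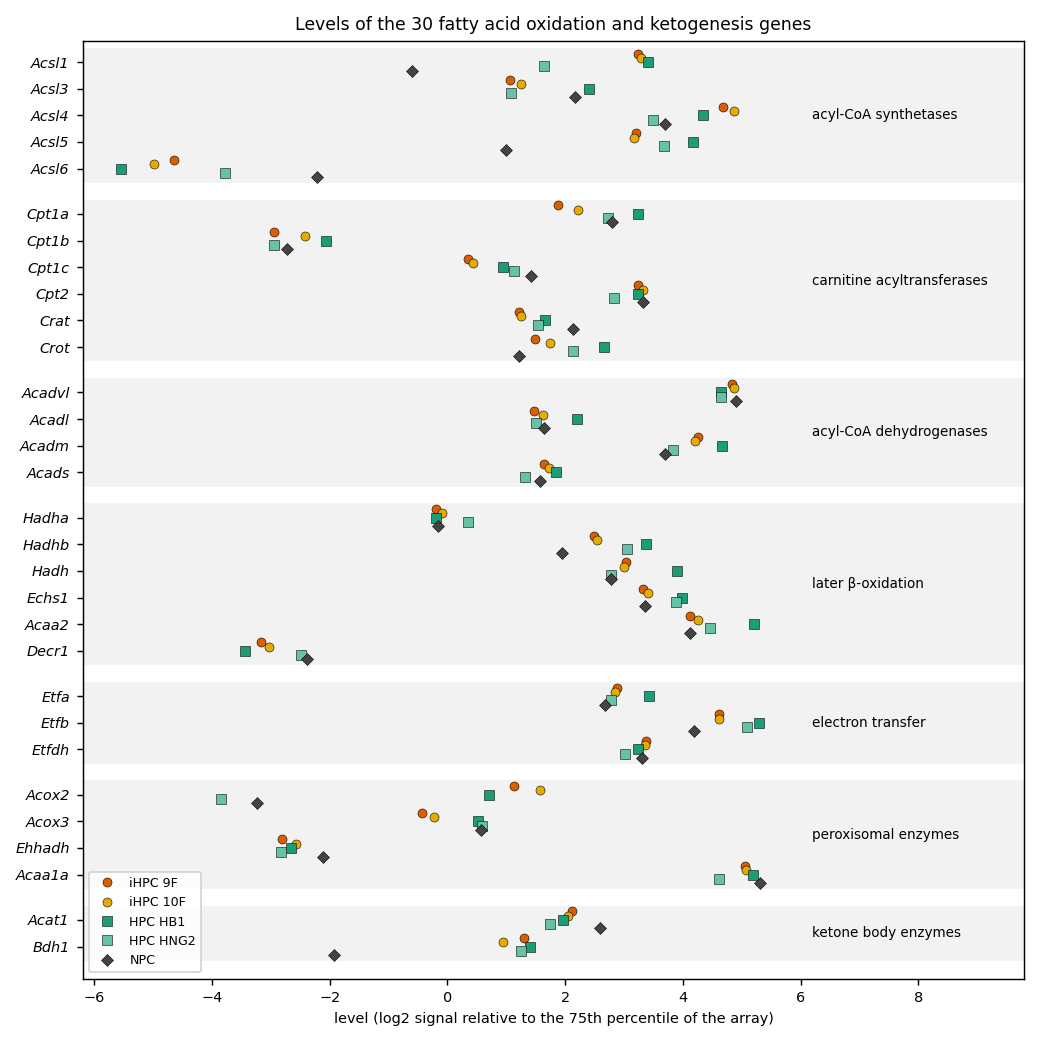
Level of each of the 30 genes on each array (x axis: log2 signal, 75th percentile of the array at 0; 1 row per gene, grouped by role; each point is 1 array, with the points of a row set slightly apart). The row of Acox2 spans 5.42 and that of Acadvl 0.25.

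The comparison of iHPC with NPC sets the induced cells against the line they were made from. Here 1 of the 30 genes, Bdh1, rose and 0 fell (limma over all genes, adjusted p under 0.05), where 2.8% of all genes rose and 2.85% fell. At an unadjusted p under 0.05, 3 genes were higher (Acsl1, Acsl5, Bdh1) and 4 lower (Acsl6, Cpt1c, Crat, Acox3), which is 10.0% and 13.3% of the 30, against 11.9% and 12.5% of all genes. The median log2 difference over the 30 genes was 0.02, against 0.03 over all genes. Both iHPC arrays lay above NPC for 14 of the 30 genes and below it for 12, where 45.4% of all genes lay above and 43.6% below. Scan day was shared by iHPC and NPC, while HB1 and HNG2 were each scanned on another day. NPC and iHPC 10F also shared a slide, while iHPC 9F, HB1 and HNG2 were each on another slide. With scan day as a block the spread comes from the iHPC pair alone, and then 5 of the 30 genes rose (Acsl1, Acsl4, Acsl5, Acox2, Bdh1) and 5 fell (Acsl3, Acsl6, Cpt1c, Crat, Acox3), where 16.8% of all genes rose and 18.2% fell. Leaving out HB1 or HNG2, or both, gave these same genes. Every value given below with scan day as a block rests on the iHPC pair and 1 NPC array. Without iHPC 9F, or without iHPC 10F, the HPC pair alone gives the spread, and neither Bdh1 nor any other gene was called. The median difference over the 30 genes was then 0.06 without 9F and -0.04 without 10F.

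The comparison of iHPC with HPC sets the induced cells against progenitors from fetal liver. By limma 0 of the 30 genes rose and 0 fell, where 3.55% of all genes rose and 1.88% fell. At an unadjusted p under 0.05, 0 were higher and 6 lower (Cpt1a, Cpt1c, Hadhb, Echs1, Etfb, Acox3), which is 20.0% of the 30 lower, against 15.0% of all genes higher and 12.6% lower. The median difference was -0.22, against 0.05 over all genes, and 20 of 30 differences (66.7%) were below 0, against 47.3% of all genes. Both iHPC arrays lay below both HPC arrays for 10 of the 30 genes and above them for 5, where 29.4% of all genes lay below and 33.4% above. The median and the genes called turned on which HPC line was used. With HB1 or HNG2 left out, the spread comes from the iHPC pair alone (median SD 0.11 over all genes, against 0.37 in the HPC pair). Counts of calls from these fits are thus not comparable with those of the full fit. Without HB1, 3 genes rose (Acsl1, Acsl4, Acox2) and 3 fell (Acsl6, Cpt1c, Acox3), with 21.1% and 15.1% of all genes called and a median of 0.06. Without HNG2, 0 rose and 9 fell (Acsl3, Acsl5, Cpt1a, Crot, Hadhb, Hadh, Acaa2, Etfb, Acox3), with 19.2% and 16.9% of all genes called and a median of -0.42. Scan day, slide and cell type cannot be told apart between HPC and the other groups.

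The comparison of HPC with NPC shows the difference between the cell types that were not induced. Here 2 of the 30 genes, Acsl5 and Bdh1, rose and 0 fell, where 6.68% of all genes rose and 8.98% fell (limma, adjusted p under 0.05). At an unadjusted p under 0.05, 6 were higher (Acsl1, Acsl5, Crot, Hadhb, Etfb, Bdh1) and 2 lower (Acsl6, Acat1), which is 20.0% and 6.7% of the 30, against 17.5% and 18.9% of all genes. The median difference was 0.22, against -0.03 over all genes. Both HPC arrays lay above NPC for 10 of the 30 genes and below it for 10, where 39.5% of all genes lay above and 40.5% below. With HB1 or HNG2 left out, the spread again comes from the iHPC pair alone, so those counts are not comparable with the full fit. Without HB1 the counts were 6 and 4, with 22.6% and 26.9% of all genes called, and the median turned to -0.11. Without HNG2 they were 11 and 2, with 25% and 25.5% of all genes called and a median of 0.50. Without iHPC 9F, or without iHPC 10F, 0 of all genes were called. The 3 comparisons share arrays, so their calls are not independent.

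**Figure D2:**
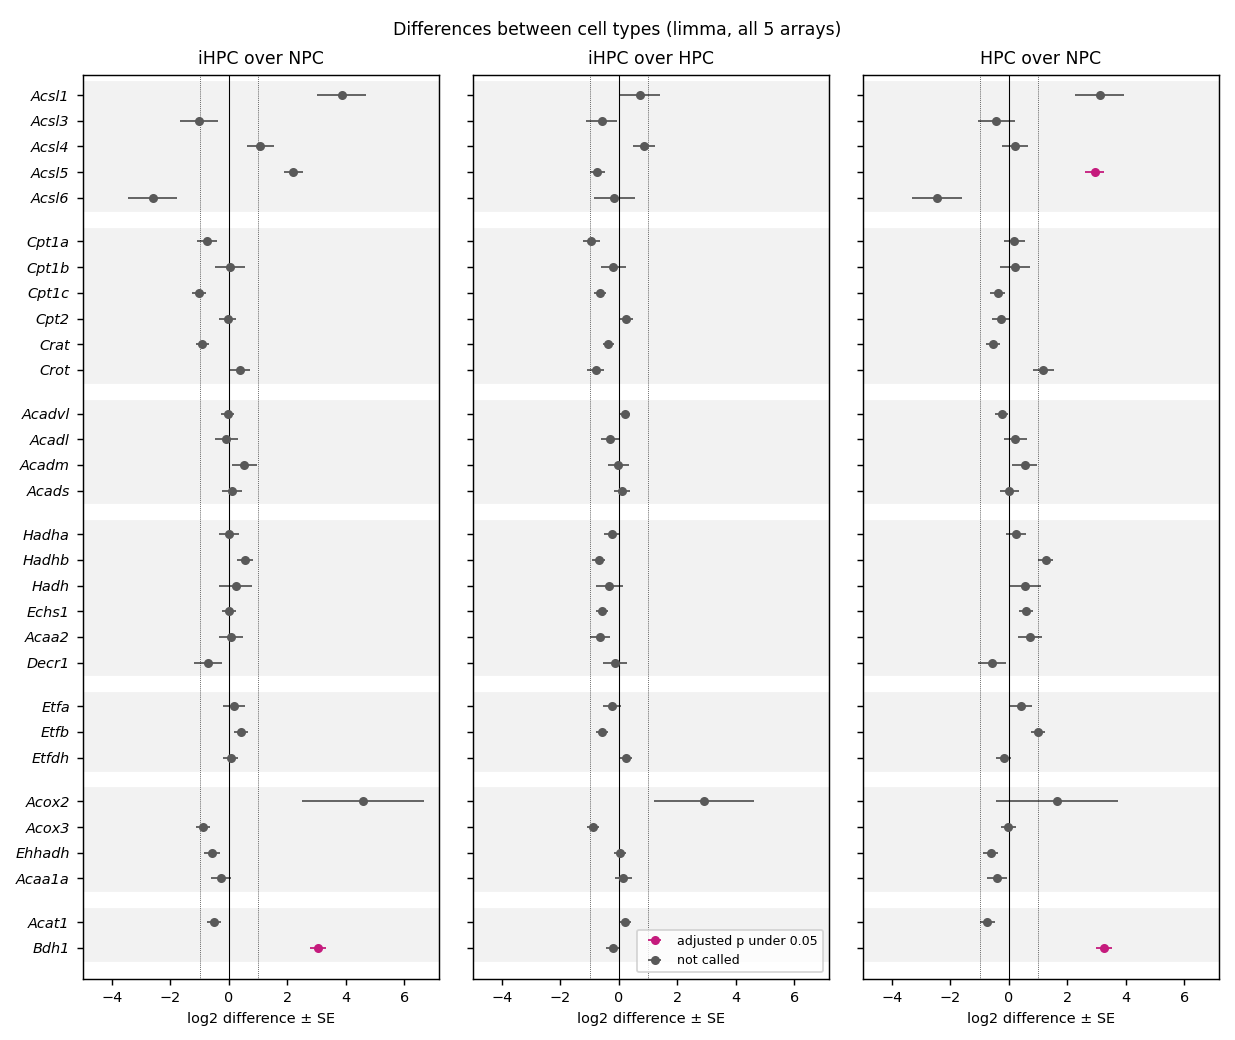
Log2 difference of each of the 30 genes in the 3 comparisons (x axis: log2 difference, bars: SE from limma; dotted lines: 2-fold; coloured points: adjusted p under 0.05). Bdh1 is called in iHPC over NPC, Bdh1 and Acsl5 in HPC over NPC, and 0 genes in iHPC over HPC.

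Among the ketone body enzymes, Bdh1 was high in both hepatic groups. It encodes the mitochondrial dehydrogenase that interconverts acetoacetate and 3-hydroxybutyrate. Its level was at 1.30 and 0.93 in iHPC and at 1.39 and 1.25 in HPC, against -1.93 in NPC. All iHPC and HPC arrays lay far above the NPC array, and the iHPC and HPC arrays overlapped. Bdh1 rose 8.28-fold in iHPC over NPC (log2 difference 3.05 ± 0.29 SE, limma adjusted p = 0.0309). It rose 9.55-fold in HPC over NPC (3.26 ± 0.29 SE, limma adjusted p = 0.0158). The difference of iHPC over HPC was -0.21, with a 95% interval of -0.88 to 0.47. A second probe gave 1.52 in iHPC over NPC and 1.52 in HPC over NPC, the same direction at a smaller size. The iHPC call was lost without the filter on dim probes (limma adjusted p = 0.0555), with 9F and 10F as separate groups, and without 9F or 10F. The HPC call was lost where the HPC pair alone gave the spread. That was without 9F or 10F, with these as separate groups, and with only HPC and NPC in the fit (limma adjusted p = 0.0901).

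The promoters of Bdh1 are shown because it was called in both hepatic groups. They are the 250 bases before each annotated start, from RefSeq on GRCm38.p6, where 25 of the 30 genes matched with 30 promoters. Searched on both strands were the nuclear receptor half-site AGGTCA, the DR1 element AGGTCANAGGTCA (which contains the half-site), the HNF4-type element CAAAGTCCA, the HNF1 element GTTAATNATTAAC, the GC box GGGCGG, the CCAAT box CCAAT and the TATA box TATAAA. Matches are in capitals in all sequences here, and neither Bdh1 window holds one.
Bdh1, first start, chr16:31422047-31422296, plus strand: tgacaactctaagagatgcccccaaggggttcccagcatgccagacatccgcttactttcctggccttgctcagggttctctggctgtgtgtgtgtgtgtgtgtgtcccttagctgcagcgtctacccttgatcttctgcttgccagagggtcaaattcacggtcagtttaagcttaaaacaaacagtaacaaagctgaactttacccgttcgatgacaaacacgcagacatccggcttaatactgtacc
Bdh1, second start, chr16:31428503-31428752, plus strand: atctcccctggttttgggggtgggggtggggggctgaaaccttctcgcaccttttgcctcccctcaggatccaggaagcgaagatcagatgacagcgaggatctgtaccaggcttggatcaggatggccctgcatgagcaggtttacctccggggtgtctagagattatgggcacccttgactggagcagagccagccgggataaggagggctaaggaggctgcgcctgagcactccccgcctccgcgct

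Acat1, the mitochondrial thiolase that joins acetyl-CoA units into acetoacetyl-CoA and also splits it, was at 2.11 and 2.05 in iHPC and at 1.96 and 1.74 in HPC, against 2.59 in NPC. All iHPC and HPC arrays lay below NPC, by a difference of -0.51 in iHPC (limma adjusted p = 0.322) and -0.73 in HPC (0.132), and neither passed the test.

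The 5 acyl-CoA synthetases, which activate long-chain fatty acids, did not move together. Of these, 0 passed in iHPC over NPC, 0 in iHPC over HPC, and 1, Acsl5, rose in HPC over NPC. Of all genes, 5.65%, 5.43% and 15.7% were called in these comparisons. Acsl5 was at 3.21 and 3.17 in iHPC and at 4.18 and 3.68 in HPC, against 0.99 in NPC. Both HPC arrays were highest, both iHPC arrays intermediate and NPC lowest, with no overlap. It rose 7.67-fold in HPC over NPC (log2 difference 2.94 ± 0.32 SE, limma adjusted p = 0.0209), a call lost without either iHPC sample (0.115). The difference of 2.20 ± 0.32 SE in iHPC over NPC missed the threshold (limma adjusted p = 0.0529), as did -0.74 in iHPC over HPC (0.186). With scan day as a block the iHPC over NPC difference passed (adjusted p = 0.00711).

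Acsl1, the main long-chain synthetase of liver and fat, was at 3.23 and 3.29 in iHPC and at 3.41 and 1.63 in HPC, against -0.59 in NPC. HB1 lay with the iHPC arrays, HNG2 lay below them, and NPC was lowest. The difference was 3.86 ± 0.84 SE in iHPC over NPC (limma adjusted p = 0.101) and 3.12 ± 0.84 SE in HPC over NPC (0.0901). The 3 Acsl1 probes gave 3.86 to 3.93 in iHPC over NPC and 2.64 to 3.12 in HPC over NPC. With scan day as a block the iHPC difference passed (adjusted p = 0.00448).

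The promoters of these 2 synthetases are shown as those that were higher in both hepatic groups than in NPC by the widest margin in their family. Capitals mark CCAAT and GC boxes.
Acsl5, chr19:55253119-55253368, plus strand: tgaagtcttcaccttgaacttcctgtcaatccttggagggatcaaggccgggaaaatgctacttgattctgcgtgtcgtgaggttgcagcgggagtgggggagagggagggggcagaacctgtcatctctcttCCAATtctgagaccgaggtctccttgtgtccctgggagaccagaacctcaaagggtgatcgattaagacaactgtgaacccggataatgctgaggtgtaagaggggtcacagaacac
Acsl1, first start, chr8:46470787-46471036, plus strand: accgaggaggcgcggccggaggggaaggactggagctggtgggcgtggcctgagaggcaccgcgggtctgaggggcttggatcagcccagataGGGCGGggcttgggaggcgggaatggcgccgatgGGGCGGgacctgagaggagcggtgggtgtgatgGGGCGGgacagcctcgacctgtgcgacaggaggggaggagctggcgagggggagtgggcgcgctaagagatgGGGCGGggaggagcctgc
Acsl1, second start, chr8:46490716-46490965, plus strand: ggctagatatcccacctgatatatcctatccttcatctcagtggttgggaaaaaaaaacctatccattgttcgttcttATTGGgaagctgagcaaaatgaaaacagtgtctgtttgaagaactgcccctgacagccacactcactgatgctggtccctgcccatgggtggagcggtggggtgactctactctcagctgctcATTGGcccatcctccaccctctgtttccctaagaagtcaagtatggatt

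Over the 30 promoters of the 25 genes, the GC box was in 19 (63.3%), against 32.7% of all 32851 promoters, and the CCAAT box in 15 (50%), against 33.8%. The half-site was in 6 (20%, those of Acadm, Acadvl, Acsl6, Cpt1a, Cpt1c and Echs1), against 14.0%. The DR1, HNF4-type, HNF1 and TATA letters were in 0 of the 30, against 0.0335%, 0.3835%, 0.0091% and 12.4% of all promoters. The median number of CpG was 12.5, against 6 over all promoters.

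The other synthetases went different ways. Acsl6, known from brain, was at -4.65 and -4.98 in iHPC and at -5.54 and -3.78 in HPC, against -2.21 in NPC, highest in NPC. It differed by -2.60 ± 0.84 SE in iHPC over NPC (limma adjusted p = 0.186) and by -2.45 ± 0.84 SE in HPC over NPC (0.135); with scan day as a block the iHPC difference passed (adjusted p = 0.0103). It was not well above background on the 10F array, and its 3 measured probes disagreed in sign for iHPC over HPC (-0.53 to 1.71). Acsl4, which prefers arachidonic acid, was at 4.68 and 4.87 in iHPC and at 4.35 and 3.49 in HPC, against 3.70 in NPC. Both iHPC arrays were above all others, by 1.07 ± 0.46 SE over NPC (limma adjusted p = 0.268, and 0.0281 with scan day as a block). Acsl3, a synthetase of the endoplasmic reticulum and lipid droplets, was at 1.06 and 1.25 in iHPC and at 2.40 and 1.08 in HPC, against 2.17 in NPC. HB1 and NPC were high and the other 3 arrays low, with a difference of -1.01 ± 0.65 SE in iHPC over NPC (limma adjusted p = 0.434, and 0.0312 with scan day as a block).

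Of the 6 carnitine acyltransferases, 0 passed in any comparison, and 5 of 6 differences of iHPC over HPC were below 0, where 47.3% of all genes were. Cpt1a, the liver form of the rate-limiting outer membrane enzyme, was at 1.88 and 2.22 in iHPC and at 3.24 and 2.73 in HPC, against 2.80 in NPC. Both iHPC arrays were below all other arrays, by -0.93 ± 0.29 SE against HPC (95% interval -1.77 to -0.10, limma adjusted p = 0.155). A second probe gave -0.64 there, but its sign differed in HPC over NPC (-0.34, against 0.19). Cpt1c, the brain form, was at 0.35 and 0.43 in iHPC and at 0.94 and 1.13 in HPC, against 1.42 in NPC. The groups were ordered without overlap, with iHPC lowest and NPC highest, and the difference of iHPC over NPC was -1.03 ± 0.24 SE (limma adjusted p = 0.116, and 0.023 with scan day as a block). Cpt1b, the muscle form, was at -2.95 and -2.42 in iHPC and at -2.06 and -2.94 in HPC, against -2.72 in NPC, and all groups overlapped. On a second Cpt1b probe iHPC was highest and NPC lowest, without overlap, with a difference of 0.96 in iHPC over NPC. Its sign differed in iHPC over HPC (0.48, against -0.18 on the probe used).

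Cpt2, which returns acyl groups to CoA inside the mitochondrion, was at 3.23 and 3.31 in iHPC and at 3.23 and 2.83 in HPC, against 3.31 in NPC, within 2-fold throughout. Crat, which acts on acetyl groups, was at 1.22 and 1.25 in iHPC and at 1.65 and 1.54 in HPC, against 2.13 in NPC, lowest in iHPC and highest in NPC (-0.90 ± 0.23 SE in iHPC over NPC, limma adjusted p = 0.132, and 0.0277 with scan day as a block). Crot, which makes carnitine esters of chains shortened in peroxisomes, was at 1.48 and 1.74 in iHPC and at 2.67 and 2.14 in HPC, against 1.22 in NPC. The HPC arrays were highest, with a difference of 1.18 ± 0.35 SE in HPC over NPC (limma adjusted p = 0.105) and -0.79 in iHPC over HPC (0.19). A second Crot probe gave 0.30 in HPC over NPC.

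The enzymes of the mitochondrial spiral mostly lay close together between cell types. Counting Cpt2 with the 4 acyl-CoA dehydrogenases, the 6 enzymes of later steps and the 3 electron transfer genes, 13 of 14 were within 2-fold in all 3 comparisons, where 49.1% of all genes were, and the exception was Hadhb. None of these 14 passed the test. At an unadjusted p under 0.05, 3 were lower in iHPC over HPC (Hadhb, Echs1, Etfb), where 12.6% of all genes were. By the same measure 2 were higher in HPC over NPC (Hadhb, Etfb), where 17.5% of all genes were.

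The acyl-CoA dehydrogenases start each turn on chains of different length. Acadvl, for very long chains, was at 4.84 and 4.87 in iHPC and at 4.65 and 4.64 in HPC, against 4.89 in NPC. Acadl, for long chains, was at 1.48 and 1.62 in iHPC and at 2.20 and 1.51 in HPC, against 1.64 in NPC. Acadm, for medium chains, was at 4.26 and 4.21 in iHPC and at 4.66 and 3.84 in HPC, against 3.70 in NPC. For Acadm, HB1 was highest and NPC lowest, and the largest difference between groups was 0.54, in HPC over NPC. Acads, for short chains, was at 1.64 and 1.72 in iHPC and at 1.85 and 1.32 in HPC, against 1.56 in NPC, and its groups overlapped in iHPC over HPC and in HPC over NPC.

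The trifunctional protein carries out the later steps on long chains, with its alpha subunit from Hadha and its beta subunit from Hadhb. Hadhb was at 2.50 and 2.53 in iHPC and at 3.37 and 3.04 in HPC, against 1.95 in NPC. HPC was highest, iHPC intermediate and NPC lowest, without overlap. The difference was 1.26 ± 0.27 SE in HPC over NPC (2.39-fold, limma adjusted p = 0.0618), -0.69 ± 0.22 SE in iHPC over HPC (0.162) and 0.57 ± 0.27 SE in iHPC over NPC (0.311). Hadha was at -0.20 and -0.10 in iHPC and at -0.20 and 0.35 in HPC, against -0.16 in NPC, with HNG2 highest and the other arrays close together. A second Hadha probe gave 0.70 in HPC over NPC, -0.85 in iHPC over HPC and -0.15 in iHPC over NPC.

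The window before Hadhb is shown because Hadha and Hadhb are transcribed away from each other from starts 273 bases apart, and their 250-base windows share 228 bases. Capitals mark GC boxes.
Hadhb, chr5:30155003-30155252, plus strand: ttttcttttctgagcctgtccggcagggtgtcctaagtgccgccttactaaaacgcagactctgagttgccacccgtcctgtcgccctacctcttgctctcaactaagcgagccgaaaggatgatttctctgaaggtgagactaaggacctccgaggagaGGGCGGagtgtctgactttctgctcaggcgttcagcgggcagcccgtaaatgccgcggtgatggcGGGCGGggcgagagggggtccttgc

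All 6 genes of this group had differences below 0 in iHPC over HPC, from -0.69 in Hadhb to -0.13 in Decr1, where 47.3% of all genes were below 0, and 0 passed. The sign turned without HB1 for Hadh (0.24), and without HNG2 for Hadha (0.05) and Decr1 (0.35). Echs1, the short-chain hydratase, was at 3.33 and 3.40 in iHPC and at 3.99 and 3.88 in HPC, against 3.35 in NPC, with both HPC arrays above the rest (-0.57 ± 0.19 SE in iHPC over HPC, limma adjusted p = 0.169). Acaa2, the mitochondrial thiolase, was at 4.12 and 4.26 in iHPC and at 5.21 and 4.46 in HPC, against 4.11 in NPC, highest in HB1. Hadh, the dehydrogenase of shorter chains, was at 3.04 and 3.0 in iHPC and at 3.90 and 2.78 in HPC, against 2.78 in NPC, with HB1 above 4 arrays that lay close together. Decr1, the reductase needed for unsaturated chains, was at -3.17 and -3.03 in iHPC and at -3.45 and -2.50 in HPC, against -2.39 in NPC, lowest in HB1.

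The electron transfer genes showed the same order for 1 of 3. Etfb, the beta subunit of the flavoprotein, was at 4.61 and 4.62 in iHPC and at 5.28 and 5.09 in HPC, against 4.19 in NPC, with HPC highest and NPC lowest and no overlap. Its difference was 1.00 ± 0.24 SE in HPC over NPC (limma adjusted p = 0.0766) and -0.57 ± 0.20 SE in iHPC over HPC (0.181). Etfa, the alpha subunit, was at 2.89 and 2.85 in iHPC and at 3.42 and 2.78 in HPC, against 2.68 in NPC, high in HB1. Etfdh, which passes the electrons to ubiquinone, was at 3.37 and 3.35 in iHPC and at 3.24 and 3.01 in HPC, against 3.30 in NPC, and its 2 probes differed in sign in both iHPC comparisons.

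Of the 4 peroxisomal enzymes, 0 passed in any comparison, and Acox2 had the widest spread of the 30 genes. Acox2, the oxidase of branched chains and bile acid intermediates, was at 1.13 and 1.58 in iHPC and at 0.70 and -3.84 in HPC, against -3.23 in NPC. Both iHPC arrays and HB1 were high, and HNG2 and NPC were low. The difference was 4.58 ± 2.08 SE in iHPC over NPC (limma adjusted p = 0.293) and 2.92 ± 1.70 SE in iHPC over HPC (0.349), with errors that reflect the gap between the HPC lines. With scan day as a block the iHPC over NPC difference passed (adjusted p = 0.00636).

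Acox3, another oxidase of branched chains, was at -0.43 and -0.23 in iHPC and at 0.51 and 0.58 in HPC, against 0.56 in NPC. Both iHPC arrays were below all others, by -0.88 ± 0.20 SE against HPC (limma adjusted p = 0.102) and -0.89 ± 0.24 SE against NPC (0.146, and 0.0399 with scan day as a block). Ehhadh, the bifunctional enzyme of straight chains, was at -2.81 and -2.58 in iHPC and at -2.65 and -2.83 in HPC, against -2.12 in NPC, highest in NPC. Acaa1a, a peroxisomal thiolase, was at 5.05 and 5.07 in iHPC and at 5.19 and 4.62 in HPC, against 5.31 in NPC, with HNG2 lowest.

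The HPC lines differed from each other more than the iHPC samples did. The median SD of the 30 genes was 0.06 in the iHPC pair and 0.37 in the HPC pair, against 0.11 and 0.37 over all genes. HB1 was higher than HNG2 for 25 of the 30 genes (83.3%, against 53.7% of all genes), with a median difference of 0.45, against 0.06 over all genes. At least 2-fold apart were 5 of the 30, where 26% of all genes were: Acox2 (4.54), Acsl1 (1.78), Acsl3 (1.32) and Hadh (1.12) were higher in HB1, and Acsl6 was lower (-1.76). Between iHPC 10F and 9F, 22 of 30 were higher in 10F, against 48% of all genes, with a median difference of 0.08. None of the 30 was 2-fold apart there, against 3.94% of all genes, and differences ran from -0.37 (Bdh1) to 0.53 (Cpt1b). HB1 and HNG2 differ in stock, scan day and slide, which cannot be told apart. Likewise, iHPC 9F and 10F differ in factors and slide.

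**Figure D3:**
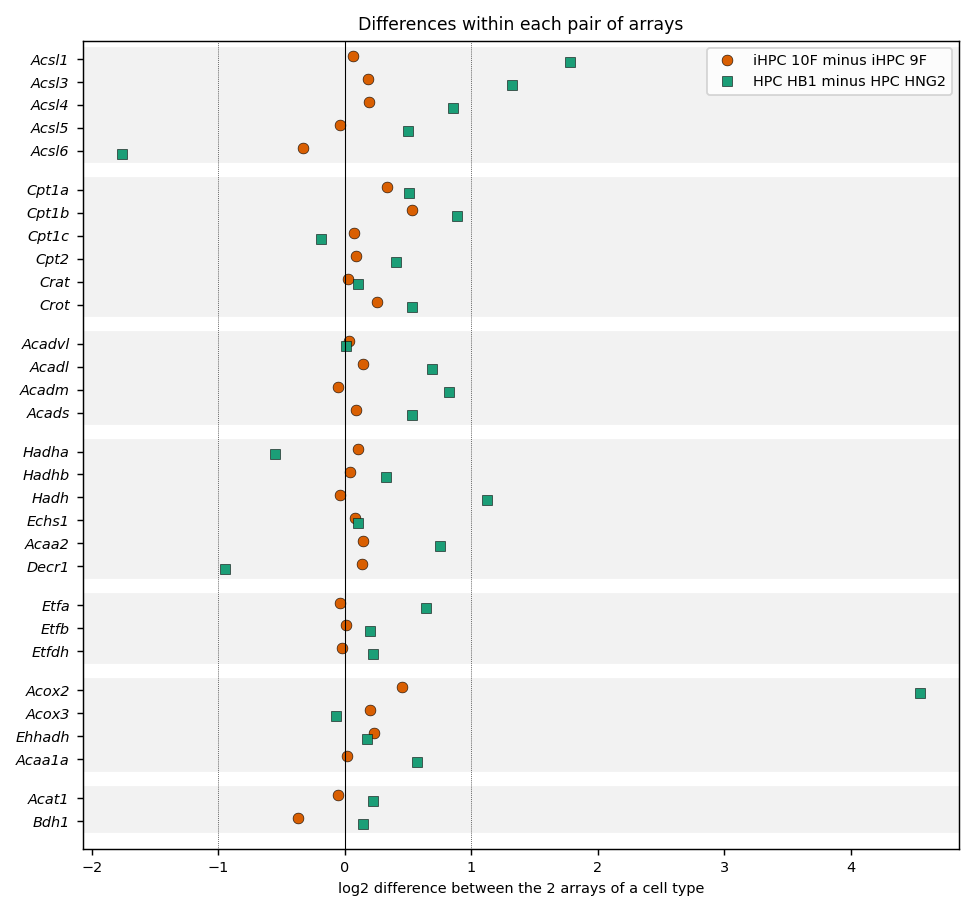
Log2 difference between the 2 arrays of each cell type for the 30 genes (x axis: log2 difference; circles: iHPC 10F minus iHPC 9F; squares: HPC HB1 minus HPC HNG2; dotted lines: 2-fold). All circles lie between -0.37 and 0.53, and squares run from -1.76 to 4.54.

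Outside the 30 genes, 87 of 93 other listed genes of these pathways were tested. In iHPC over NPC 5 rose and 1 fell, in iHPC over HPC 5 rose and 3 fell, and in HPC over NPC 8 rose and 8 fell (limma, adjusted p under 0.05). These are 5.7% and 1.1%, 5.7% and 3.4%, and 9.2% and 9.2% of the 87, against 2.8% and 2.85%, 3.55% and 1.88%, and 6.68% and 8.98% of all genes. Their median differences were 0.18, 0.17 and -0.13. Other mitochondrial β-oxidation genes gave 0 calls of 18 in either iHPC comparison, and 2 rose and 0 fell in HPC over NPC. Slc25a20, the carnitine carrier, was at -0.29 and -0.22 in iHPC and at -0.10 and -0.57 in HPC, against 0.25 in NPC. Among 20 other peroxisomal genes, 1 rose and 0 fell in each iHPC comparison. In HPC over NPC 1 rose and 4 fell, where 6.68% and 8.98% of all genes did. Hsd17b4, a peroxisomal enzyme that acts on branched chains, was at 3.44 and 3.44 in iHPC and at 3.81 and 3.78 in HPC, against 3.42 in NPC.

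Of 9 other ketone body genes, 0 were called in iHPC over NPC, where 2.8% of all genes rose and 2.85% fell. In iHPC over HPC 0 rose and 2 fell, against 3.55% and 1.88% of all genes. In HPC over NPC 2 rose and 1 fell, against 6.68% and 8.98% of all genes. Slc16a6, known from zebrafish as an exporter of ketone bodies from liver, fell by 3.76 in iHPC over HPC (limma adjusted p = 0.0206), and Hmgcll1 fell by 2.72 (0.0318). Bdh2, a cytosolic dehydrogenase, fell by 7.23 in HPC over NPC (0.0349).

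Called genes among PPAR targets, peroxisomal genes and lipolysis genes were the following. In iHPC over NPC, Pdk4, a kinase that restrains pyruvate oxidation, rose by 5.14 (limma adjusted p = 0.0315). Angptl4, an inhibitor of lipoprotein lipase, rose by 4.06 (0.0285). Fgf21, a hepatic fasting hormone, was at least 6-fold higher in iHPC than in NPC (0.0411) and at least 9.84-fold higher than in HPC (0.0234). Acot4, a peroxisomal thioesterase, was at least 3.77-fold higher in iHPC than in NPC (0.0404) and, for HPC over NPC, at least 9.25-fold higher (0.0161). Mgll, the monoglyceride lipase, was at -4.46 and -4.13 in iHPC and at -6.69 and -6.62 in HPC, against -0.07 in NPC, but in HPC it was well above background in HNG2 alone and there at the lowest such signal, so its differences from HPC are not exact. It fell by 4.22 in iHPC over NPC (0.0285), and it also passed, lower in HPC than in NPC (0.00982) and higher in iHPC than in HPC (0.03).

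In iHPC over HPC, Ucp2, a mitochondrial carrier, rose by 3.51 (limma adjusted p = 0.0202) and Txnip, a thioredoxin inhibitor, by 2.63 (0.0224). Vnn1, a pantetheinase, fell by 5.16 (0.0183). In HPC over NPC, Vnn1 was at least 60.3-fold higher (0.00982), Slc16a6 rose by 5.78 (0.0105) and Pparg, the adipogenic PPAR, by 4.59 (0.0371). There Ucp2 fell by 3.06 (0.0156), and Abcd2, a peroxisomal transporter, was at least 2.4-fold lower (0.0439). Of 16 regulators 0 were called in either iHPC comparison, where 5.65% (over NPC) and 5.43% (over HPC) of all genes were. Ppara was at -1.57 and -1.58 in iHPC and at -1.66 and -3.94 in HPC, against -3.63 in NPC, with HNG2 and NPC low and the other arrays close together (iHPC over NPC 2.06 ± 1.06 SE, limma adjusted p = 0.342). Acox2, Acsl1 and Ppara were each lower in HNG2 and NPC than on the other 3 arrays. So were Acsl4, Acadm, Acads, Hadh and Etfa. The share of all genes with this order was not computed, and a link with Ppara was not tested.

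**Figure D4:**
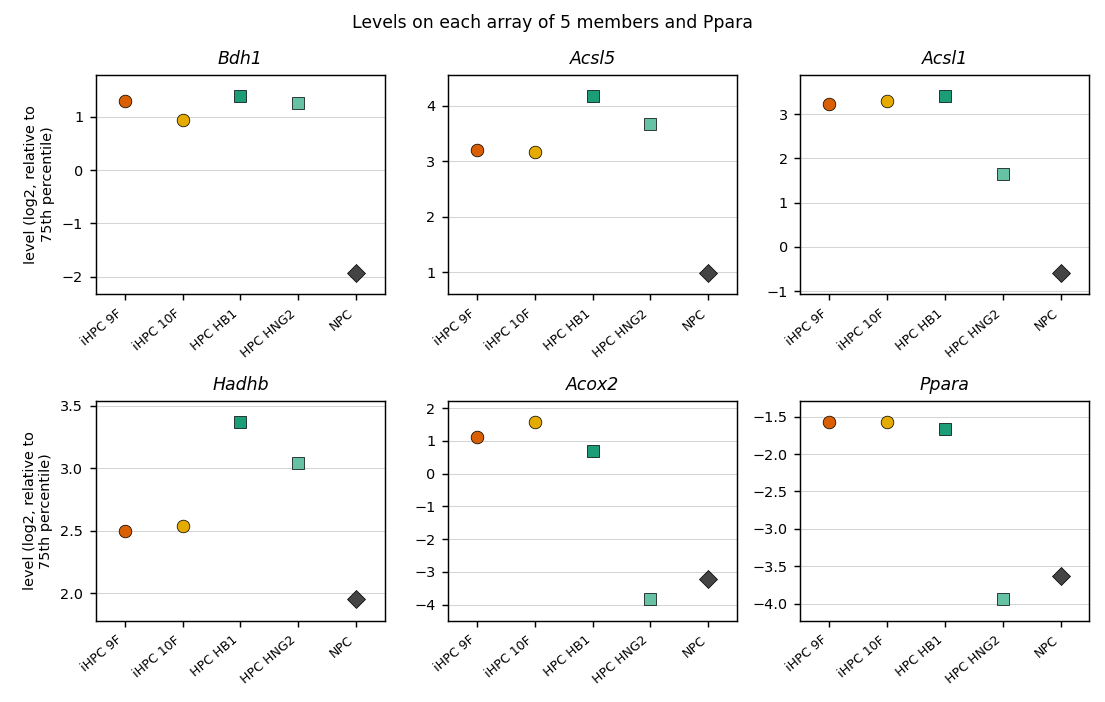
Levels of Bdh1, Acsl5, Acsl1, Hadhb, Acox2 and Ppara on each array (y axis: log2 signal, 75th percentile of the array at 0; each point is 1 array). Bdh1 separates NPC from the other arrays, while Acox2 and Ppara are low in both HNG2 and NPC.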

How the data were processed

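RNA of 5 mouse cell cultures was labelled with Cy3 (0.25 µg each, per the labels' protocols) and read on Agilent one-colour arrays. The authors deposited 1 intensity per spot, made by the scanner software (Feature Extraction 10.7.3.1, per the file headers) from background-subtracted signals; the headers record no normalization between arrays. The deposited series matrix held the same intensity on 100% of spots.

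From these deposited intensities, log2 was taken and each array's 75th percentile subtracted, without control and outlier spots. Probes were named through RefSeq accessions (22951), file symbols (6659) or the file's own name (11564). A probe was tested if all arrays of some group measured it well above background, with 1 probe per gene (highest mean). Where no array of a group did so, only a bound is given: "at least" sets the bright mean against the higher, per array, of the dim signal and the lowest signal well above background.

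The test was limma's (version 3.58.1, R 4.3.3, two-sided), with all 5 arrays in 1 model and 2 residual degrees of freedom, Benjamini-Hochberg adjusted over 19308 genes. The script was tested on simulated data in which all groups had the same spread, unlike the iHPC and HPC pairs here. NPC, with 1 array, is taken to vary as the other groups do, and the number of arrays limits the precision. The members and lists were chosen with earlier results of these data known. All 30 members are named; of other pathway genes, up to 4 called genes in each direction per comparison with the largest differences, and 3 further genes of interest, are named. Some listed genes are not reported here. Alternatives covered normalization, background, filter, probe choice, variance trend, groups in the fit, scan day and each replicate left out.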

Additional observations from a re-analysis of the deposited data

How the results depend on the processing

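Over 15 alternatives at most, Bdh1 and Acsl5 kept their direction in every called comparison (log2 difference 2.28 to 3.23 for Bdh1 in iHPC over NPC, 2.39 to 3.54 for Bdh1 and 2.69 to 3.22 for Acsl5 in HPC over NPC), but counts of calls did not hold. Genes higher in iHPC over NPC (1) were 2 under quantile normalization, median centring, normexp and an intensity trend, 0 with no filter on dim probes and with 9F and 10F as separate groups, and 5 with only the groups compared and with scan day as a block; with 1 array left out they ran from 0 to 5. Genes lower there (0) were 5 with only the groups compared and with scan day as a block, and 0 to 5 with 1 array left out. Genes higher in HPC over NPC (2) were 4 under median centring, normexp and an intensity trend, 0 with only the groups compared and with separate iHPC groups, and 0 to 11 with 1 array left out; genes lower (0) were 1 under normexp and 0 to 4. In iHPC over HPC (0 and 0) they were 0 to 3 higher and 0 to 9 lower with 1 array left out. The fits with separate iHPC groups called 0 of all genes. The median of the 30 genes in HPC over NPC was 0.50 under median centring, where the median of all genes was 0.26, and -0.11 to 0.50 with 1 array left out. Of all genes, median centring gave 1760 higher and 1497 lower in HPC over NPC, in place of 1290 and 1734, and 690 and 620 in iHPC over HPC, in place of 685 and 363. Slide as a random block was not run, since no correlation could be estimated. No paired analysis was possible because the labels give no replicate numbers that join the groups. With 2 residual degrees of freedom, the spread of 1 pair decides most calls.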
